A study of Mus musculus with 4 samples.

Results

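The Eph receptors and ephrins that act at segment boundaries were followed here as 10 genes: the A-class receptors Epha3, Epha4, Epha5 and Epha7, the B-class receptors Ephb2 and Ephb3, the A-class ephrins Efna1 and Efna5, and the B-class ephrins Efnb1 and Efnb2. They were fixed by name, with earlier results of these data known. Every probe whose accession maps to them was taken, which gave 17 of 41174 probes on the array. Epha3 and Ephb3 lie on chromosome 16, Epha7 and Ephb2 on 4, and Epha4, Epha5, Efna1, Efna5, Efnb1 and Efnb2 on 1, 5, 3, 17, X and 8. Of these, 15 probes were tested, and all 10 genes were among the 13584 genes tested of 18224 with a name. The tissue was the posterior portion of E9.5 (embryonic day 9.5) mouse embryos, frozen after collection from crosses between Jmjd3+/- parents and staged by time and somite number. One group was Jmjd3-/-, with 2 RNA samples that carry the label numbers 1 and 9, and the other was wild-type, with 2 RNA samples numbered 3 and 4. Jmjd3, now Kdm6b, encodes a histone demethylase that removes a repressive methyl mark laid down by Polycomb complexes. The series describes the samples of a genotype as independent. The sources used here do not give the strain, the make of the mutant allele or whether a sample is a single embryo, and a p-value here rests on the spread of these 4 samples alone, part of which may be technical.

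Eph receptors are receptor tyrosine kinases, and ephrins are their ligands, which stay bound to the membrane of the neighbouring cell. A-class ephrins are held by a lipid anchor and B-class ephrins span the membrane, and contact signals into both cells, so that cells with receptor and cells with ligand repel each other or separate. In the posterior embryo this pair system is known for the furrow that splits each new somite from the presomitic mesoderm, where Epha4 and Efnb2 lie on opposite sides of the boundary. The same families guide motor axons and neural crest cells and, through Efnb2 and Ephb4, set arteries apart from veins.

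The levels below are log2 processed signals less the 75th percentile of the same array, so 0 is the level of that percentile. Negative values are dimmer spots. Values are given for Jmjd3-/- replicates 1 and 9 in that order, then for wild-type replicates 3 and 4. A difference is Jmjd3-/- minus wild-type on this log2 scale, with the moderated standard error (SE) of limma and n = 2 per genotype throughout, and a gene counted as called at an adjusted p (Benjamini-Hochberg) under 0.05. Signals of different probes are not comparable as levels, so the members were not ranked by level. A summed level of markers is weighted to the brightest probes of its list.

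The 75th percentile of processed signal was 578 to 627 on the 4 arrays, and 59.8% to 63.0% of probes were well above background. The probe for Kdm6b read 0.35 and 0.11 in Jmjd3-/- against 2.15 and 2.23 in wild-type. Both Jmjd3-/- readings were thus lower but still above the 75th percentile of their array. The sources used here do not place this probe inside or outside the mutated sequence, so how far it checks the labels is not known. Of 10 posterior axis and tail bud markers, all 10 were well above background on every array, and of 6 forebrain and midbrain markers on the array, Otx2, Six3 and En1 were above background on none and Emx2 and En2 on all 4. Counting genes over 2-fold apart between arrays, Jmjd3-/- replicate 1 had 806 and 706 against wild-type and replicate 9 had 354 and 333, while there were 157 within wild-type and 431 within Jmjd3-/-. All arrays lay on 1 slide in 1 scan, with Jmjd3-/- at both ends, so position and genotype cannot be told apart.

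Promoter sequence is shown for the 3 members with an unadjusted p under 0.05 and a single annotated start, a choice made after their values were seen, because the missing enzyme acts on a mark found mainly at CpG-rich promoters. Each run is the 250 bases before the transcription start, 5′ to 3′ on the gene's strand, from RefSeq on GRCm38.p6, with CpG dinucleotides (CG) in capitals. The Epha3 window lies at chr16:63864176-63864425, Epha5 at chr5:84417383-84417632 and Efnb2 at chr8:8661243-8661492, all on the minus strand.
Epha3: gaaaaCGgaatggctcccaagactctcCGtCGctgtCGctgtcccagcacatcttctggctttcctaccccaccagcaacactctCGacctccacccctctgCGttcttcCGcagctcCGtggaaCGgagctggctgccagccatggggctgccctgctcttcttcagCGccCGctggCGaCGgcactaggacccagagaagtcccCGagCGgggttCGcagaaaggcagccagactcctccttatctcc
Epha5: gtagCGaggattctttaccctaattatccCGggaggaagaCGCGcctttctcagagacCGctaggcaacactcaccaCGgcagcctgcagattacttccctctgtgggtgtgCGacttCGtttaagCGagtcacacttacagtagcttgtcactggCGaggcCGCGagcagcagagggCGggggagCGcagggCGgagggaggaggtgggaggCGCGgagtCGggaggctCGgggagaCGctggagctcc
Efnb2: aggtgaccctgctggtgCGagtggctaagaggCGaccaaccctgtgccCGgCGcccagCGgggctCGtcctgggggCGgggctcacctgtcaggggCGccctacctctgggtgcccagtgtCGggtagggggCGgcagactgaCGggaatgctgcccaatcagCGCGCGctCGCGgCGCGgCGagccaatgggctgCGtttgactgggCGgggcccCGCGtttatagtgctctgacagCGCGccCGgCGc

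All 10 members matched the RefSeq promoter table, with 12 windows because Efna1 and Epha7 each have 2 starts. The windows held 13 to 32 CG, against a median of 6 over 32851 windows of the same length, of which 92.1% held at least 1. Efnb1 had the fewest (13, more than 68.5% of windows) and Efna5 the most (32, more than 95.4%). Epha3, with 16 CG, and Epha5, with 20, lay between them, and their signals differed between the genotypes in opposite directions. The letters CCAAT, read on both strands, stood in 6 of 12 member windows and in 33.8% of all windows. The core letters TGGGAA, which the Notch pathway factor RBPJ binds, stood in 4 of 12 member windows on either strand, those of Epha4, Epha7 and Efnb1, and in 21.6% of all windows. The 2 Epha7 windows overlap over most of their length, so letters they share, the TGGGAA match among them, count in both. These are letter matches and not shown to be used in these embryos.

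The comparison of genotypes asks which of these guidance genes differ in the posterior embryo without Jmjd3. Among the members, Epha5 was 3.03-fold brighter in Jmjd3-/-, with a wide error. Epha3 was dimmer on both Jmjd3-/- arrays but measurable on only 1 of them, so no exact fold is given for it. Smaller differences stood with a small spread: Efna1 was 1.30-fold higher and Efnb2 was 1.23-fold lower. Epha4 differed more between the Jmjd3-/- arrays than between the genotypes. By limma, 0 of the 10 members were called at an adjusted p under 0.05, a rule met by 0.0368% of all genes tested. At an unadjusted p under 0.05, 2 members were higher (Epha5 and Efna1), where 5.15% of all genes were, and 2 were lower (Epha3 and Efnb2), where 5.93% of all genes were. Epha3 entered the test only through wild-type, where it is high, and with a filter on all 4 arrays it was not tested and 3 members stood at the unadjusted threshold. That count was 3 or 4 under every processing setting tried: 4 with limma-trend, and 3 with quantile normalisation and without the filter on dim probes, where Epha3 missed it, and with probes averaged per gene, where Efnb2 missed it. By limma, Efnb2 then had an unadjusted p of 0.306. The genotypes did not overlap for 8 members, 3 higher and 5 lower, where 23.0% and 23.7% of all genes did so in those directions. The shares of all genes given here also stand beside the counts of the lists below. The median difference of the members was −0.09, against −0.01 over all genes tested, and the median size of the difference was 0.34 against 0.12. Since the members were chosen with earlier results of these data known, these counts and medians only describe them.

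**Figure D1:**
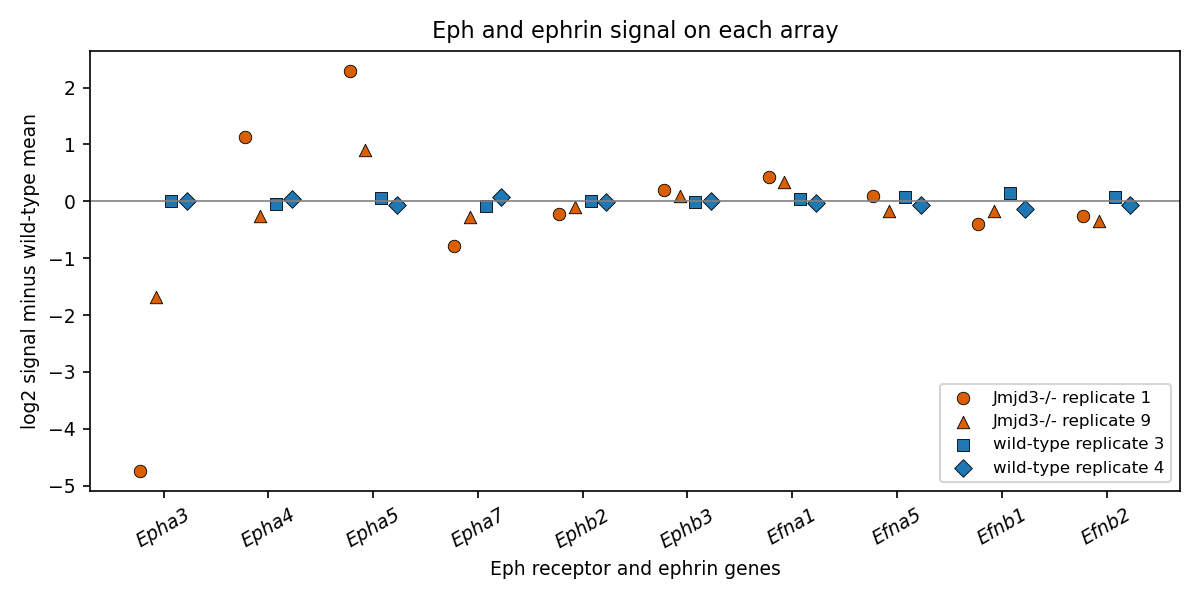
Log2 signal of each member less its wild-type mean (vertical axis) for the 10 genes (horizontal axis), 1 point per array, orange for Jmjd3-/- and blue for wild-type. Epha3 and Epha5 leave the zero line in opposite directions on both Jmjd3-/- arrays, farther in replicate 1, and the Jmjd3-/- points of Epha4 lie on both sides of it.

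Epha3, a receptor of axons, heart and mesenchyme that binds A-class ephrins, read −7.66 and −4.60 in the mutant pair, and −2.91 and −2.92 in the wild-type pair. Both Jmjd3-/- values were below both wild-type values, and the Jmjd3-/- arrays were 3.06 apart where the wild-type arrays were 0.003 apart. In signal units the probe read 2.99 and 23.9 in Jmjd3-/- and 79.4 and 83.0 in wild-type, and the first value was not well above background, so only 1 of 2 Jmjd3-/- arrays measured it. The fit took that unmeasured value as it stands and gave −3.21 (SE 1.11, 95% interval −6.37 to −0.05, limma adjusted p = 0.445), so its size and interval are not exact. With dim signals raised to the lowest measurable signal of their array, a setting added once the values were known, the difference was −2.17, and with normexp background correction it was −0.80. Without Jmjd3-/- replicate 1, which leaves measured values only, it was −1.68 (limma adjusted p = 0.117); without replicate 9 it was −4.74 and passed (limma adjusted p = 0.0465), resting then on the unmeasured value alone with the wild-type spread.

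Epha5, a receptor best known from forebrain and retinal axons, read −1.92 and −3.31 in the mutant pair, and −4.16 and −4.27 in the wild-type pair. Both Jmjd3-/- arrays lay above both wild-type arrays, and replicate 1 was 1.39 above replicate 9. The difference was 1.60 (SE 0.51, 95% interval 0.15 to 3.05, limma adjusted p = 0.420). The signals were low, 160 and 58.4 against 33.6 and 32.5, but well above background on all 4 arrays. The difference was 0.91 without Jmjd3-/- replicate 1, 2.30 without replicate 9 (limma adjusted p = 0.0465) and 0.79 with normexp.

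Epha4, the receptor of the somite furrow that also acts in hindbrain segments and motor axons, read 1.71 in Jmjd3-/- replicate 1 and 0.33 in replicate 9, against 0.53 and 0.63 in wild-type replicates 3 and 4. Replicate 1 was the highest array and replicate 9 the lowest, so the wild-type arrays lay between the Jmjd3-/- arrays. The difference of 0.44 (SE 0.51, limma adjusted p = 0.774) was smaller than the gap of 1.38 between the Jmjd3-/- arrays, and its sign turned to −0.25 without replicate 1 and was 1.13 without replicate 9. Mesp2, the transcription factor of the anterior presomitic mesoderm known to switch on Epha4, was named after its values were seen. It read −1.09 in Jmjd3-/- replicate 1 and −2.85 in replicate 9, against −2.18 and −2.44 in wild-type, so that replicate 1 was again the highest array and replicate 9 the lowest. Its partner gene Mesp1, picked likewise, read −0.78 and −2.32 against −1.57 and −1.83. Lfng, a Notch modifier of the same region also picked after its values were seen, ran the other way between the mutant arrays, at −3.84 and −3.30 against −3.75 and −3.58. So did the clock gene Hes7, at −4.36 and −3.47 against −4.15 and −4.39. Tbx6, an earlier presomitic gene also named after its values were seen, was instead above wild-type on both Jmjd3-/- arrays, at 4.87 and 3.95 against 2.78 and 2.96. The 7 presomitic markers on the array were all above background. Their summed level (in multiples of the 75th percentile) was 53.7 and 29.4 in the mutant pair, and 14.4 and 16.3 in wild-type. Tbx6 and Dll3, the brightest of the list, make up most of that sum. Of the 7, 4 were higher without overlap and had an unadjusted limma p under 0.05, and 3 overlapped. The part of these markers in the Epha4 values was not tested.

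**Figure D2:**
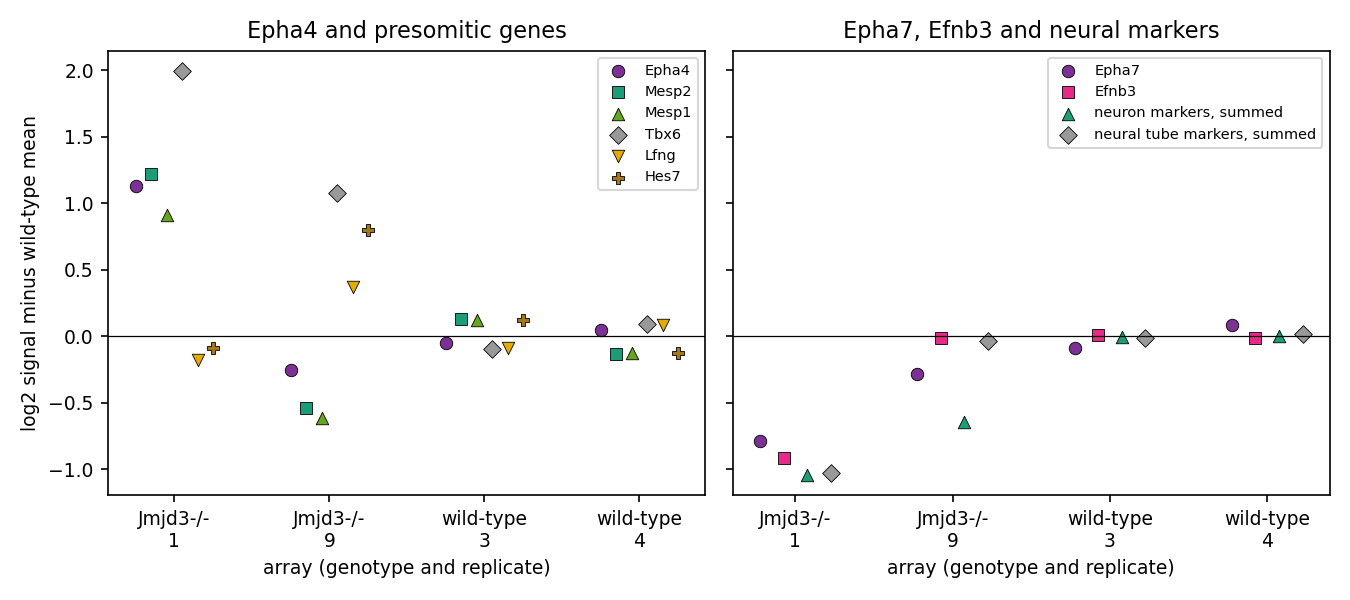
Log2 signal less the wild-type mean (vertical axis) on each array (horizontal axis) for Epha4, Mesp2, Mesp1, Tbx6, Lfng and Hes7 (left), and for Epha7, Efnb3 and the summed neuron and neural tube markers (right), 1 point per gene or list and array. Epha4, Mesp2 and Mesp1 are above zero in Jmjd3-/- replicate 1 and below it in replicate 9, while Tbx6 is above zero in both and Lfng and Hes7 are below zero in replicate 1 and above it in replicate 9.

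Epha7, a receptor of the neural tube and of somites with a truncated form that can blunt signalling, read −1.20 and −0.70 in the mutant pair, and −0.50 and −0.33 in the wild-type pair. The genotypes did not overlap, though replicate 9 lay 0.28 below the wild-type mean and replicate 1 lay 0.79 below it. The difference was −0.53 (SE 0.20, 95% interval −1.12 to 0.05, limma adjusted p = 0.468), and it was −0.28 without replicate 1. Neural markers had lower values beside it. The 7 neuron markers on the array were all lower, with a summed level of 3.25 and 4.29 in Jmjd3-/- against 6.69 and 6.70 in wild-type. All of these had both mutant values below both wild-type values, as 23.7% of all genes did. Of the 7, 6 had an unadjusted limma p under 0.05, where 5.93% of all genes were lower at that rule. Dcx counts in both, but at −5.62 in Jmjd3-/- replicate 1 it was not well above background. Dcx entered the test only through wild-type, where it is high. The other neuron markers were well above background on all 4 arrays. The 8 neural tube markers had a summed level of 3.89 and 7.75 against 7.86 and 8.02, so replicate 9 was close to wild-type there. Of those 8, 5 were lower without overlap and 3 overlapped (Sox1, Sox2 and Pax6, each above both wild-type arrays in replicate 9), with 1 at an unadjusted limma p under 0.05. None of the markers of these lists on the array was dim on all 4 arrays. Their part in the values of Epha3, Epha7, Efna2 and Efnb3 was not tested, and in a bulk sample fewer cells of a type and less RNA per cell cannot be told apart. The 6 heart markers had a summed level of 1.51 and 2.14 against 5.77 and 3.40. Of these, 4 were well above background on all 4 arrays. Myl7, Tnnt2 and Nkx2-5 were lower without overlap, Actn2 and Myh6 overlapped and Myh7 was higher. Nkx2-5, at −5.67 in Jmjd3-/- replicate 1, was not well above background there and entered the test only through wild-type. The part of the heart markers in the Epha3 values was likewise not tested.

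The B-class receptors differed by less. Ephb2, which binds B-class ephrins and steers commissural axons and neural crest, read 1.41 and 1.53 in the mutant pair, and 1.64 and 1.62 in the wild-type pair. That is a difference of −0.16 (SE 0.08, 95% interval −0.40 to 0.08, limma adjusted p = 0.563). Ephb3, which overlaps with Ephb2 in function, read 2.0 and 1.90 against 1.80 and 1.81, a difference of 0.15 (SE 0.08, 95% interval −0.08 to 0.37, limma adjusted p = 0.568). In both genes the genotypes did not overlap, Ephb2 being lower and Ephb3 higher in Jmjd3-/-. Each interval takes in 0 and leaves room for differences of up to about 0.40 in size.

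Among the A-class ephrins, Efna1, a ligand of Epha2 that is also induced in vessels, had the smallest p of all members. It read 0.11 and 0.02 in the mutant pair, and −0.28 and −0.35 in the wild-type pair. Both Jmjd3-/- arrays were above both wild-type arrays, and the difference of the means was 4.20 times the larger gap within a genotype. That difference was 0.38 (SE 0.08, 95% interval 0.15 to 0.61, limma adjusted p = 0.335). Tail bud markers had higher values beside it, in 9 of 10 genes, with a summed level of 67.5 and 50.5 in Jmjd3-/- against 33.5 and 36.8 in wild-type. Hoxc9 and Hoxb9, the brightest of the list, make up most of that sum. Epha5 and Efna1 were higher, whereas the means of all 7 neuron markers tested were lower. Of the 8 endothelial markers, 7 had a lower mean and 1 a higher mean. The part of the tail bud, neuron and endothelial markers in the values of Efna1, Epha5, Epha1 and Epha2 was not tested. Efna5, which repels Epha4- and Epha5-bearing axons, read 2.42 and 2.16 against 2.39 and 2.25. The genotypes overlapped, and the difference was −0.03 (SE 0.13, 95% interval −0.40 to 0.34, limma adjusted p = 0.950), with a sign that turned without the second mutant array (0.10), without wild-type replicate 3 (0.041) and with the mean of its probes (0.091).

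The B-class ephrins were both lower. Efnb2, the ligand of the caudal somite and of arteries, read 1.12 and 1.04 in the mutant pair, and 1.46 and 1.32 in the wild-type pair. Both Jmjd3-/- arrays were below both wild-type arrays, and the Jmjd3-/- arrays were within 0.08 of each other. The Jmjd3-/- mean was 81.0% of wild-type, a difference of −0.30 (SE 0.09, 95% interval −0.56 to −0.04, limma adjusted p = 0.405). The 8 endothelial markers had a summed level of 14 on both Jmjd3-/- arrays against 17.3 and 17.8. Of these, Cldn5, Emcn, Esam and Pecam1 were lower without overlap, the first pair at an unadjusted limma p under 0.05, and Cdh5, Kdr, Tek and Tie1 overlapped. The 9 somite markers had a summed level of 43.9 and 41.6 against 40.5 and 41.4, with 5 lower and 1 higher without overlap, 3 overlapping and a median difference of −0.41. Among those lower, Myf5 read −6.96 and −5.72 in Jmjd3-/-, not well above background, and entered the test only through wild-type. At an unadjusted limma p under 0.05 stood Tbx18, Pax9 and Meox2, lower, and Tcf15, higher. The part of either list in the Efnb2 values was not tested. Efnb1, an X-linked ligand of somites and neural crest, read 2.19 and 2.42 against 2.73 and 2.44. The genotypes did not overlap, but the gap between the wild-type arrays (0.29) was as large as the difference of −0.28 (SE 0.15, 95% interval −0.71 to 0.15, limma adjusted p = 0.568). The Efnb1 difference ranged from −0.43, with wild-type replicate 4 left out, to −0.14, with wild-type replicate 3 left out. The 6 neural crest markers tested had lower means, 5 of them without overlap and 1 at an unadjusted limma p under 0.05; over all 7 on the array, the dim Erbb3 included, the summed level was 3.27 and 4.39 against 4.86 and 4.82. The part of the somite and neural crest lists in the Efnb1 values was not tested.

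For 7 members a second, dimmer probe gave another reading, which shares the RNA and is no further replicate. The dimmer probes of Epha3 and Epha5 were well above background on 0 of 4 arrays, so neither large difference has a second measurement. For Epha3 that probe read 3.86 and 4.50 signal units in Jmjd3-/- against 11.0 and 14.3 in wild-type, and for Epha5 it read 3.06 and 3.48 against 3.18 and 3.17. The dimmer Epha7 probe, which carries the accession of another transcript, read 15.3 and 25.3 signal units against 32.8 and 34.0, and the first value was not well above background, so no difference is given. The dimmer probe of Ephb2 differed by −0.17 (SE 0.16) and that of Efnb2 by −0.11 (SE 0.30), with the same sign as the brighter probe. On the dimmer Ephb2 probe the genotypes overlapped, at −4.11 and −3.78 in the mutant pair against −3.85 and −3.69 in the wild-type pair. The dimmer Efnb2 probe was highest in Jmjd3-/- replicate 1 and lowest in replicate 9, so its genotypes overlapped. For Epha4 the dimmer probe read −1.51 and −1.97 in the mutant pair, and −2.07 and −1.66 in the wild-type pair, a difference of 0.13 (SE 0.24). Replicate 1 was the highest array on this probe too, but replicate 9 was not the lowest. The Efna5 probes, which carry accessions of 2 transcripts, disagreed in sign, at 0.21 (SE 0.13) for the dimmer one.

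**Figure D3:**
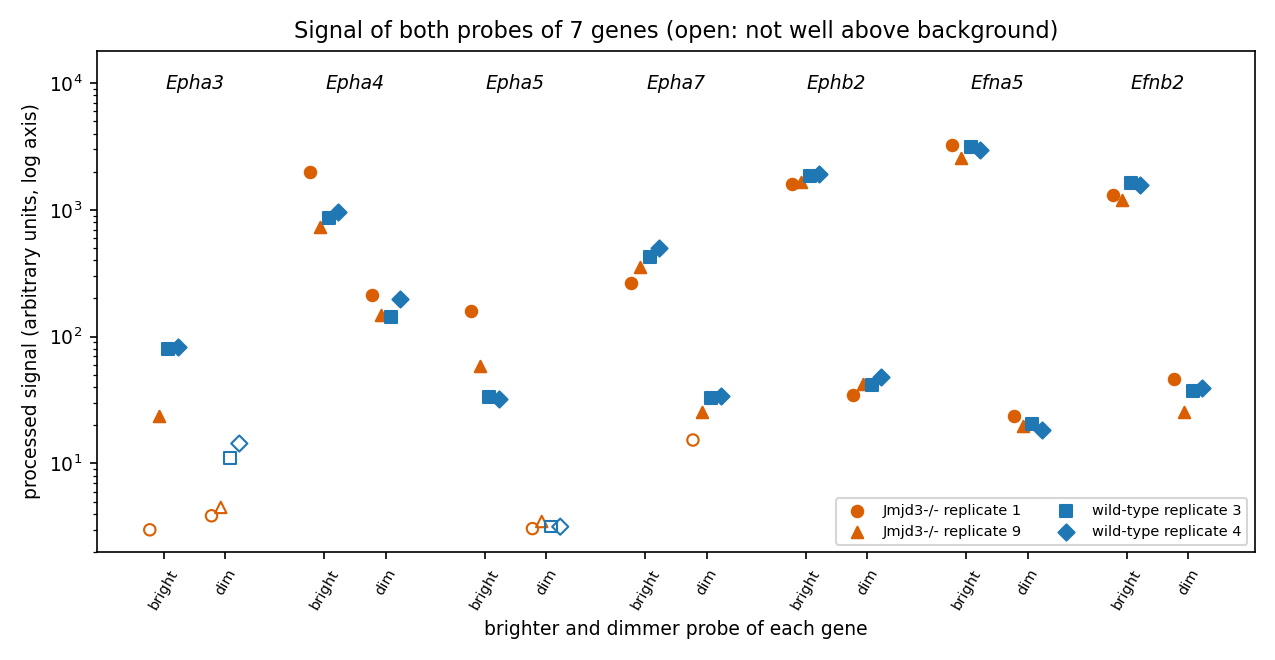
Processed signal in arbitrary units on a log axis (vertical) for the brighter and the dimmer probe of the 7 members with 2 probes (horizontal axis), 1 symbol per array, open where the spot was not well above background. The brighter Epha3 probe is open in Jmjd3-/- replicate 1, and the dimmer probes of Epha3 and Epha5 are open on all arrays.

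The rest of the family was read from a list of 8 receptors and 4 ephrins. Epha6, Epha8 and Epha10 were above background on 0 arrays, and Efna3 had no named probe, which left 5 receptors and 3 ephrins tested. Of the 5 receptors, 4 were higher and 1 lower, with 0 called and 2 higher at an unadjusted p under 0.05 (limma), where 5.15% of all genes were higher. Epha1 read 0.40 and 0.41 in the mutant pair, and 0.005 and 0.12 in the wild-type pair, a difference of 0.35 (SE 0.08, limma adjusted p = 0.346). Epha2, the main receptor of Efna1 and a gene of the primitive streak, read 1.72 and 1.28 against 0.78 and 0.98, a difference of 0.62 (SE 0.19, limma adjusted p = 0.414). Ephb6, a receptor without kinase activity, differed by 0.09 (SE 0.09). Of the 3 ephrins, 2 were lower and 1 higher, with 0 called and 0 at an unadjusted p under 0.05 (limma). Efna2 differed by −0.54 (SE 0.19, limma adjusted p = 0.451) and Efna4 by 0.06 (SE 0.07). Efnb3, the midline ligand of the spinal cord, read 1.24 in Jmjd3-/- replicate 1 and 2.14 in replicate 9 against 2.16 and 2.14 in wild-type, so that replicate 1 alone was low, as in the neural tube list. Over the whole family, 9 of 18 tested genes were higher and 9 lower, with a median difference of 0.005.

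**Figure D4:**
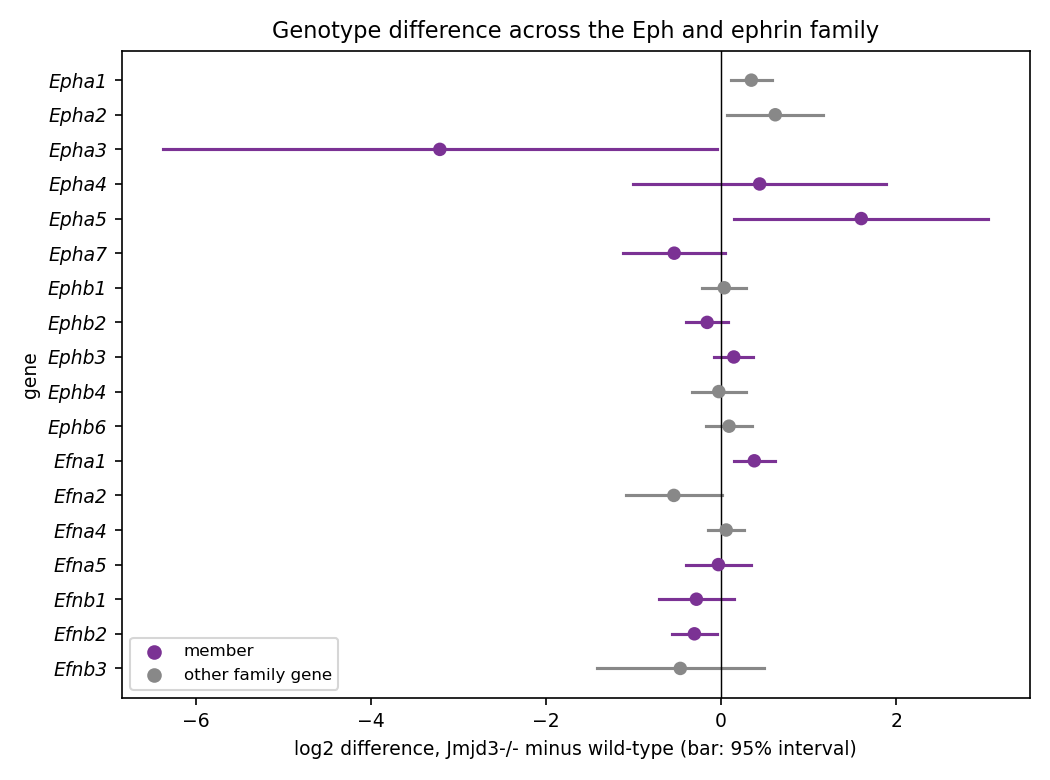
Log2 difference between the genotypes (horizontal axis, bar for the 95% interval) for the 18 tested genes of the family (vertical axis), purple for the 10 members and grey for the other 8. The intervals of Epha3 (−6.37 to −0.05) and Epha5 (0.15 to 3.05) are among the widest, the first resting on a value not well above background, and those of Ephb2, Ephb3, Efna1 and Efnb2 are narrow.

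Genes that carry the signal inside the cell were read from a list. Of 32 signalling partners listed, 30 were tested, with 22 higher, 8 lower and a median of 0.06. Of all 13584 genes tested, 6366 were higher and 7218 lower. Among the partners 0 were called, and 3 were higher and 1 lower at an unadjusted p under 0.05 (limma). Of all genes, 5.15% were higher and 5.93% lower at that rule. The phosphatase gene Ptpn13, whose product acts on B-class ephrins, differed by 0.33 (SE 0.09), Chn1, which links Epha4 to collapse of the growth cone, by 0.25 (SE 0.08), and the exchange factor gene Tiam1 by 0.34 (SE 0.11), each with both Jmjd3-/- arrays above both wild-type arrays. Genes of somite borders, a list of 27 with 25 tested, stood with 15 higher, 10 lower and a median of 0.15. Of these, 0 were called, and 7 were higher and 3 lower at an unadjusted p under 0.05 (limma), beside the same 5.15% and 5.93% of all genes. Tbx18, which keeps the rostral side of the somite distinct, differed by −0.98 (SE 0.12, limma adjusted p = 0.219), Pax9, a gene of the later sclerotome, by −0.79 (SE 0.15), and Dll1, a Notch ligand of the presomitic and caudal side, by 1.00 (SE 0.22).

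The genes whose pattern over the 4 arrays was nearest to that of Efna1, by Euclidean distance after each gene was centred on its mean, were Wls at 0.03, Fhl1 at 0.04 and Gm527 at 0.04. They differed by 0.39, 0.35 and 0.38. The choice by pattern on the same 4 arrays itself sets these differences near that of Efna1. The likeness is a description only, and a shared regulation was not tested.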

How the data were processed

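Cy3-labelled cRNA from the total RNA of 4 samples was read on Agilent arrays of 1 colour, 1 per sample. The deposited scanner files hold spot intensity in arbitrary units, background-corrected and detrended within an array by Agilent Feature Extraction 10.7.3.1, per the file headers (the submitters' processing notes give the same version), and not normalised between arrays. The deposited series table of log2 values has no stated scale; it matched the values used here less the wild-type mean (r from 0.995 to 0.997 across probes, 99.9% of probes within 0.01, column medians −0.02 to 0.05). Of 45018 spots, 1639 controls were dropped and spots of a probe averaged as log2. Accessions were named through the RefSeq table of GRCm38.p6 (26690 probes by accession, 28 by symbol or synonym, 14456 unnamed; all 17 member probes by accession); the headers name mm9, and coordinates of that build were not used. The brightest probe stood for a gene, tested where 1 genotype or both had it well above background on each array. limma 3.58.1 in R 4.3.3 compared genotypes with no covariate; the prior had 1.79 degrees of freedom and the median SE over genes was 0.11. The code was tested on simulated data with independent normal noise and set log2 differences. Such noise models neither an outlying array nor signals near background, so the test does not bear on values such as those of Epha3. An exact permutation of 2 against 2 cannot give a p below 0.333, so none was run. The number of arrays limits the precision.

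The normexp alternative used the median spot signal, since the files hold no mean spot signal. The members and lists were chosen with earlier results of these data known. The text names all members, up to 3 genes of each list by p, Kdm6b, the 3 genes nearest to the member with the smallest p, and others where it says so. Effects of the alternatives are in the closing section.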

Additional observations from a re-analysis of the deposited data

How the results depend on the processing

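Over 14 alternative settings, 10 of processing and 4 that leave out an array, member values kept their sign and their side of the threshold in 133 of 139 cases. Much of this agreement was set in advance, so the count does not measure robustness. Changes of filter and limma-trend leave the log2 difference of a tested member as it was, and the deposited table holds nearly the same values. As no member was called as reported, the side of the threshold could change only by a new call. The sign turned for Efna5 when its probes were averaged (0.091) and over arrays left out (−0.16 to 0.10; 0.041 without wild-type replicate 3), and for Epha4 over arrays left out (−0.25 without Jmjd3-/- replicate 1, to 1.13 without replicate 9). Epha3 and Epha5 passed without Jmjd3-/- replicate 9, at −4.74 and 2.30, the first from a single spot not well above background, so members called ranged from 0 to 2 over arrays left out, and members with an unadjusted p under 0.05 from 0 (without either wild-type array) to 6, against 4 as reported and 3 to 4 over processing settings. Where 1 array of a genotype remains, it is assumed to vary like the other genotype. All genes called numbered 5 as reported, without outlier spots and in the authors' deposited table, 7 with median scaling and with probes averaged per gene, 2 with normexp, 3 with limma-trend, 0 with quantile normalisation, without the filter on dim probes, with a filter on all 4 arrays and with dim signals raised to the floor of the array, and 0 to 167 over arrays left out; the cause was not tested. Epha3 was not tested under the filter on all 4 arrays. The median of all genes moved by at most 0.03 under any setting. No paired analysis was possible because the genotypes share no replicate number. Low signal limits Epha3 and Epha5, whose dimmer probes were not measurable.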
